A study of Mus musculus with 6 samples.

Results

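Igfbpl1 and Pcsk6, 2 genes for secreted proteins, were selected by the size of their fall in hearts with reduced expression of the cardiac transcription factor NKX2-5. They are 2 of the 1577 genes in the deposited table, found by gene symbol. Whole hearts were dissected at E11.5 from 3 control embryos (labelled WT) and 3 hypomorphic embryos of the Nkx2-5 hypomorphic line, labelled C57BL/6, and total RNA was sequenced. Nothing in the labels says that the hearts came from separate litters. The methods name an IRES-Cre line and a gfp line of Nkx2-5 as genotyped, but the alleles that make up the control and hypomorphic embryos are not given in the sources used here. For each gene the table holds 1 mean per group and no value for a single heart, so the spread between hearts, the depth of each library and any test between the groups were out of reach. The values that chose the members are those described here, and they are given as a description with no test.

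PCSK6, also called PACE4, is a subtilisin-like proprotein convertase. Enzymes of this family cut precursor proteins after basic residues, and PCSK6 is secreted and held in the extracellular matrix by heparan sulfate. It is known for the maturation of ligands of the TGF-beta family, Nodal and the BMPs among them, for a part in left/right patterning of the mouse embryo, and in the heart for activating corin, the protease that matures atrial natriuretic peptide. Igfbpl1 encodes a secreted protein related to the insulin-like growth factor (IGF) binding proteins, which hold IGFs in the extracellular space and shape their access to the receptor.

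Igfbpl1 (Entrez 75426, ENSMUSG00000035551) lies on chromosome 4 of mm9, from 45822340 to 45839795 on the minus strand. Its protein-coding transcript in the GENCODE M1 annotation has 5 exons and 2864 bases, 810 of them coding. Pcsk6 (Entrez 18553, ENSMUSG00000030513) is a far longer gene on chromosome 7, from 73007057 to 73195220 on the plus strand, whose longest transcript has 22 exons and 4211 bases, 2877 of them coding. No other annotated gene overlaps either of them on either strand, so that reads of a neighbour are not counted into them by overlap.

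The upstream sequence of Pcsk6 is shown because it lies next to the annotated start of a strongly reduced gene. Whether it regulates Pcsk6 in the heart was not tested. These are the 250 bases before the RefSeq start (sequence from RefSeq, GRCm38.p6 table, plus strand). They have 1 exact match on chromosome 7 of mm9, from 73006772 to 73007021, and end 35 bases before the GENCODE start. Capitals mark TTTAAAA, which was chosen as a motif after the sequence had been read because it resembles a TATA box.

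Pcsk6 upstream: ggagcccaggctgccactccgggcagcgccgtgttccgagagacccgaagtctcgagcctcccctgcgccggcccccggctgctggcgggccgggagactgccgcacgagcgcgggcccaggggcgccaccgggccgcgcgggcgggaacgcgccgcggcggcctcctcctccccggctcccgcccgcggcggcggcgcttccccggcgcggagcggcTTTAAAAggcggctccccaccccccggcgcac

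The window is very rich in G and C. Its GC content was 81.2%, against a median of 52.0% over 27025 promoters of the same length, 99.2% of which had a lower value, and it held 40 CG pairs against a median of 6. TTTAAAA begins 32 bases before the start and occurs, on either strand, in 2163 of these promoters. Neither TNAAGTG, a core known to be bound by NKX2-5, nor the shorter AAGTG contained in it was found on either strand of the window. They occur in 2713 and 11019 of the 27025 promoters, the last being 40.8%. TGACAG, a core known to be bound by MEIS1, a homeobox factor, was not found either and occurs in 4316. These shares are over promoters of any GC content. A core that holds A and T is less likely by composition in a window at 81.2%, so its lack is not read against them. A match or its lack describes the letters of this window alone.

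In control hearts Igfbpl1 had a mean of 6028 raw reads, and in hypomorphic hearts 465. The hypomorphic mean was thus 7.71% of the control mean before any scaling. On the normalized log2 scale of the table, where each gene is set against its own baseline, the group values were 1.54 in control and -1.70 in hypomorphic hearts. Their difference, -3.24, is a level 9.43-fold lower in hypomorphic hearts. Its reads were thus far fewer in hypomorphic hearts but still well above 0.

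Pcsk6 had a mean of 4241 raw reads in control hearts and 357 in hypomorphic hearts, which is 8.41% of the control mean. Its normalized values were 1.45 and -1.68, a difference of -3.14 on the log2 scale and a level 8.79-fold lower. Igfbpl1 minus Pcsk6, the difference between the falls was -0.10 on the log2 scale, and whether this exceeds the spread between hearts was not tested. In whole hearts, fewer cells expressing a gene and less of its RNA per cell cannot be told apart.

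Raw reads per gene grow with transcript length, so levels were also set per kilobase of the longest annotated transcript. On this scale Igfbpl1 had 2105 reads per kb in control and 162 in hypomorphic hearts, and Pcsk6 had 1007 and 84.7. The level of Igfbpl1 was 2.09 times that of Pcsk6 in control hearts and 1.92 times in hypomorphic hearts. Among the 900 genes listed as lower that have an annotated length, the median was 60.8 reads per kb in control and 22.8 in hypomorphic hearts. Igfbpl1 ranked 43rd and Pcsk6 73rd from the top of these 900 in control hearts.

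The size of the fall is best read beside the other genes of the table, which holds only those that passed the authors' AC test, run on read numbers, and changed by 1.5-fold or more. Of the 1577 genes, 917 were lower in hypomorphic hearts (58.1%) and 660 higher (41.9%), 282 were lower by at least 2-fold (17.9%), and 7 were lower by at least 8-fold (0.444%). Both Igfbpl1 and Pcsk6 are among those 7, in the 6th and 7th places. The rule that chose them used these falls, so nothing is read from the places.

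What the rule did not fix is how many reads stood behind the falls. The other 5 genes with falls of at least 8-fold had from 22.6 to 878 control reads. Above the members in this order stood Sftpa1, a surfactant protein gene, with 25.5 reads in control and 0.680 in hypomorphic hearts, and Ctsj, a cathepsin gene, with 22.6 and 0.667. Gm1337 (344 control reads, log2 difference -3.97) and Lyz1 (878 and 53.0 reads, -3.59), a lysozyme gene with a close paralog, also ranked higher. Just under the members came Lyz2, the lysozyme of macrophages, at -2.96 on the log2 scale with 3289 and 305 reads, then Kctd16 at -2.80 with 47.7 and 7.90 reads and Sox3, a SOX transcription factor gene, at -2.79 with 937 and 99.3 reads.

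Taking the 446 genes whose higher group mean reached 1000 raw reads, 164 were lower in hypomorphic hearts, 32 of them by at least 2-fold and 3 by at least 4-fold. Those 3 were Igfbpl1, Pcsk6 and Lyz2. The next falls among abundant transcripts were those of Mb (myoglobin) at -1.95, Slitrk5 at -1.87, Tnnt1 (slow skeletal troponin T) at -1.75, Acvr1c at -1.62 and Ckm (muscle creatine kinase) at -1.59. Igfbpl1 and Pcsk6 reached 1000 reads through the control hearts alone and were chosen for these falls, so their place in this order is a description and nothing is read from it. In the number of reads, Igfbpl1 lost 5564 and Pcsk6 3885 between the group means, the 23rd and 31st largest losses in the table.

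**Figure D1:**
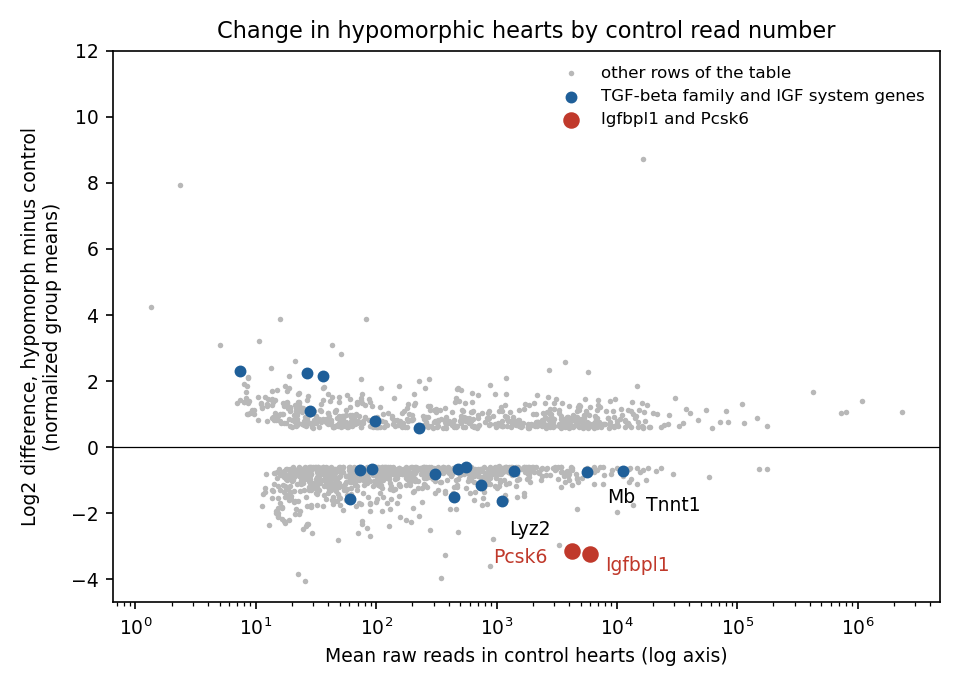
Each point is 1 gene of the deposited table, with its mean raw reads in control hearts on the x axis (log axis) and the log2 difference of normalized group means, hypomorph minus control, on the y axis. Igfbpl1 (-3.24) and Pcsk6 (-3.14), chosen for these falls, lie next to Lyz2 (-2.96), and blue points are the listed genes of the TGF-beta family and the IGF system. Values of single hearts are not in the table, so no error is shown.

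The normalized difference and the ratio of raw means did not coincide. The log2 ratio of raw means was -3.70 for Igfbpl1 and -3.57 for Pcsk6, so the normalized differences were smaller falls by 0.46 and 0.44 on the log2 scale. The median of this offset over all genes was 0.47, with quartiles of 0.44 and 0.50 and 5th and 95th percentiles of 0.29 and 0.64. Both members therefore carry nearly the offset of the table as a whole. Under each scaling of the raw means that was tried, both genes fell by more than 2-fold, with log2 differences from -4.07 to -2.61 for Igfbpl1 and from -3.94 to -2.48 for Pcsk6. Each scaling shifts all genes alike and by less than these falls, so this outcome was fixed by the raw ratios.

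**Figure D2:**
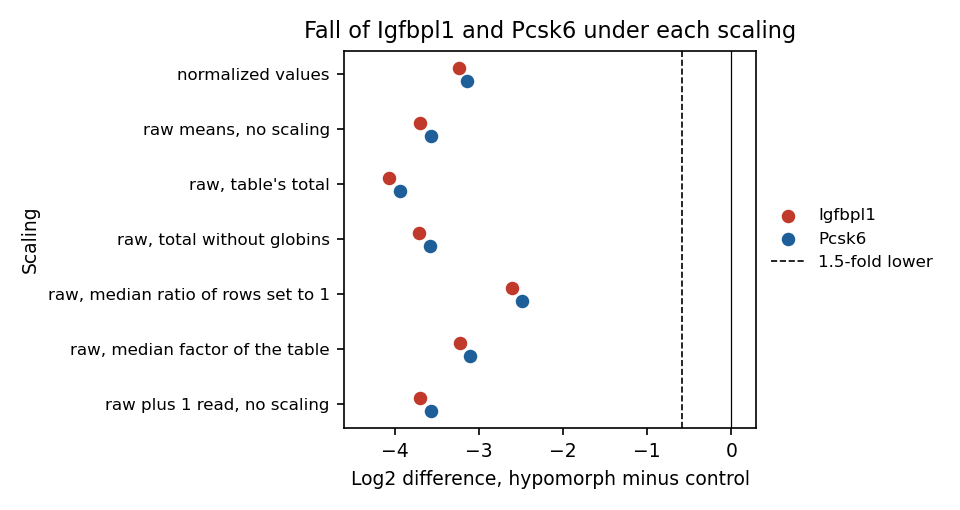
The x axis gives the log2 difference, hypomorph minus control, of Igfbpl1 (red) and Pcsk6 (blue) from the normalized values and from raw means under 6 other settings (y axis), and the dashed line marks a level 1.5-fold lower. All points lie beyond the line, the nearest being those with the median ratio of the listed genes set to 1 (-2.61 and -2.48). These are single group values, with no error bars.

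The genes closest to the members in level, measured as the distance between their 2 log2 raw group means, were few. Pcsk6 was the nearest gene to Igfbpl1, at a distance of 0.63 log2 units, and the only one within 1 unit. The nearest to Pcsk6 was Lyz2, at 0.43, followed by Igfbpl1. Next to Igfbpl1 came Slitrk5 (distance 1.06), Lyz2 (1.06), Fbln5 (1.31), an elastic fibre protein, Lgals9 (1.45), Sfrp2 (1.58), a secreted modulator of WNT signalling, Lum (1.59) and Pirt (1.62). Next to Pcsk6 came Scube2 (1.36), Tmtc1 (1.37), Slitrk5 (1.39), Ccdc3 (1.44), Ppp1r1b (1.51) and Pirt (1.52). The measure rests on 2 group values per gene, so it orders levels and says nothing of shared control. It includes the fall, and both members were chosen for large falls, so nothing is read from their closeness.

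No gene for a convertase inhibitor or helper, of 5 looked for, was listed. Of the ligands whose precursors convertases cut, 34 TGF-beta family genes were looked for. Of these ligand genes, 6 were listed, 3 lower and 3 higher. Lower were Bmp3 (60.7 reads in control, 13.4 in hypomorphic hearts, log2 difference -1.56), Mstn (myostatin, 743 and 240 reads, -1.15) and Bmp15 (91.7 and 41.3 reads, -0.66). Higher were Lefty2, Lefty1 and Gdf10. Lefty2 and Lefty1, inhibitors of Nodal signalling that are themselves cut by convertases, had 28.0 and 45.3 reads (log2 difference 1.10) and 97.5 and 121 reads (0.79), and Gdf10 had 226 and 293 reads (0.59), but Lefty1 was at -0.05, close to no difference, when raw means were scaled to the table's total.

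Among 19 receptors and coreceptors, 5 were listed. Acvr1c, the type I receptor ALK7 for Nodal and activins, stood at -1.62 on the log2 scale, with 1110 control and 254 hypomorph reads. Bmpr1b, a type I BMP receptor, had 445 and 111 reads (-1.52), and Acvrl1, the endothelial receptor ALK1, had 561 and 264 reads (-0.61). Setting the median ratio of the listed genes to 1 adds the same 1.09 to every log2 ratio and left Acvrl1 at 0.00051, which is no difference. In contrast, both listed EGF-CFC coreceptors of Nodal were higher. Cfc1 (Cryptic) went from 26.6 to 87.7 reads (log2 difference 2.25) and Tdgf1 (Cripto) from 7.33 to 30 reads (2.31).

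Of 20 signal proteins and targets only Foxh1, the DNA-binding partner of SMAD proteins in the Nodal response, was listed, and it was higher, with 35.9 reads in control and 125 in hypomorphic hearts (2.16). None of 25 inhibitors and latency proteins was listed. Over the 98 TGF-beta family genes looked for, 12 were thus listed, 6 lower and 6 higher (of all genes, 58.1% were lower). Their median log2 difference, -0.01 against -0.63 over the whole table, lies between Acvrl1 (-0.61) and Gdf10 (0.59). The table holds no gene changed by less than 1.5-fold, so this median only restates the even split. Control reads were under 100 in 2 of the 6 lower genes and in 5 of the 6 higher ones.

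In the IGF system no ligand or receptor gene of the 13 looked for was listed. Of 21 IGF-binding proteins and relatives, 5 were listed, all lower, Igfbpl1 included. Igfbp2, a classical IGF-binding protein, had 5631 reads in control and 2402 in hypomorphic hearts (log2 difference -0.76). In control hearts its raw reads were close to those of Igfbpl1, but per kilobase it stood at 4309 reads against 2105. Wisp1 and Nov, matricellular proteins of the CCN family with an IGFBP-like domain, had 11270 and 4975 reads (-0.71) and 306 and 120 reads (-0.80). Htra3, a serine protease with the same kind of domain, had 483 and 212 reads (-0.67).

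Genes for proteases of IGF-binding proteins and their inhibitors were also searched. Pappa2, a metalloprotease that cuts IGF-binding proteins, had 73.1 and 33.7 reads (log2 difference -0.70), and Stc1, a stanniocalcin, had 1392 and 616 reads (-0.71). Without Igfbpl1, 6 of the 39 IGF system genes were listed, all 6 lower, with a median of -0.71. Their falls lay in a range from -0.80 to -0.67, and none reached 2-fold, whereas Igfbpl1, chosen for its fall, was at -3.24. Falls of less than 1.5-fold are not in the table, and the median over all lower genes was -0.81, so such values are common in it. In a table where 58.1% of genes were lower, 6 of 6 is a count over few genes and was not tested.

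**Figure D3:**
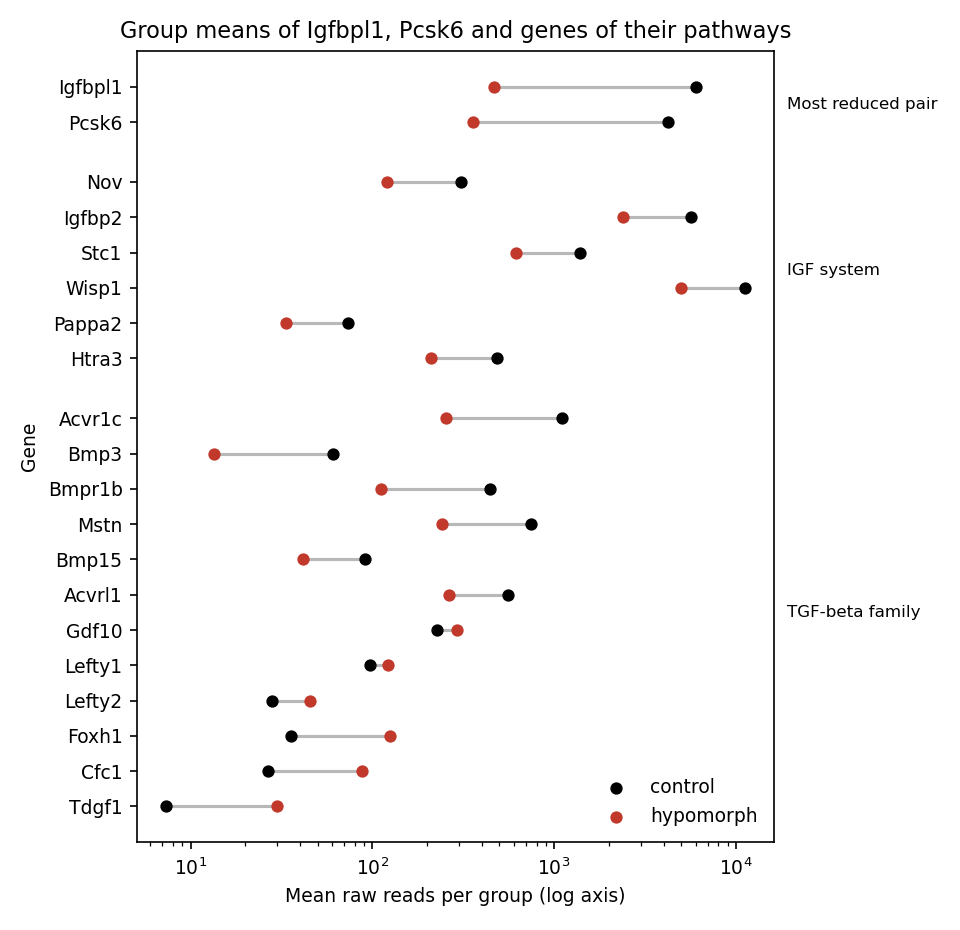
Black points are the mean raw reads of the 3 control hearts and red points those of the 3 hypomorphic hearts, on a log x axis, for Igfbpl1, Pcsk6 and the listed genes of the IGF system and the TGF-beta family (y axis). The 2 longest lines to the left belong to Igfbpl1 (6028 to 465) and Pcsk6 (4241 to 357), both chosen for their falls. The other IGF system genes have short steps to the left, and Foxh1, Cfc1 and Tdgf1 step to the right from under 40 control reads. The points are group means without a spread.

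The table attaches GO annotations to each gene, which the rule did not use. The members share no accession, since Igfbpl1 carries 'extracellular region' and Pcsk6 'extracellular space'. Of 209 listed genes with either term, 141 were lower (67.5%, against 58.1% of all genes), with a median log2 difference of -0.70 against -0.63. With at least 1000 control reads, 39 of these genes were lower, 12 of them by at least 2-fold. Over all genes whose higher group mean reached 1000 reads, 164 were lower, 32 of them by at least 2-fold. Both members are counted in each of these numbers. They pass the minimum through control reads alone and were chosen for their falls, so nothing is read from the counts. After Igfbpl1, Pcsk6 and Lyz2 the falls were smaller, among them those of Scube2 at -1.47, Lgals9 at -1.19, Sfrp2 at -1.14, Col2a1 (type II collagen) at -1.11, Vldlr (a lipoprotein receptor) at -1.11 and Angpt1 (angiopoietin, a ligand of the TIE2 receptor) at -1.06.

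Determination of left/right symmetry, a term that Pcsk6 carries, was attached to 9 listed genes, 4 lower and 5 higher. Without Pcsk6, chosen for its fall, 3 of 8 were lower, against 58.1% of all genes. Their median log2 difference was 1.19, against -0.63 over all genes. The share rests on few genes and was not tested, and the sign of the median follows from it. Lower beside Pcsk6 were Acvr1c, Dll1, a Notch ligand, with 1268 reads in control and 430 in hypomorphic hearts (log2 difference -1.09), and Foxf1a with 29.5 and 13.6 reads (-0.67). The 5 higher genes were Fgf8 (10.7 and 63.4 reads, 3.23), Cfc1, Foxh1, Fgf10 (205 and 355 reads, 1.26) and Tbx1 (33.9 and 46.4 reads, 1.13). Fgf8, Fgf10 and Tbx1 also belong to the second heart field, the progenitor population that adds cells to the poles of the heart.

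For the other terms, counts and medians are given without the chosen member and are to be set against 58.1% lower and a median of -0.63 over all genes. Serine-type endopeptidase activity was attached to 9 listed genes other than Pcsk6, 7 of them lower, with a median of -0.74. Dpp4 (4027 and 1647 reads, -0.80) and Masp1 (2249 and 971 reads, -0.74), a protease of the complement system, were lower with many reads, whereas Mst1 (313 and 410 reads, 1.05) and Rhbdl3 (123 and 141 reads, 0.68) were higher. Heparin binding was attached to 26 others, 20 lower and 6 higher, with a median of -0.79. Fgf9 (734 and 220 reads, -1.24) and Fgf1 (1795 and 665 reads, -0.96) were among the lower ones and Fgf10 among the higher. Extracellular matrix was attached to 20 others, 17 lower, with a median of -0.72. These shares rest on few genes and were not tested, and the sign of each median follows from its share.

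For Igfbpl1, the term IGF binding was attached to 5 listed genes, which are the 5 binding proteins and relatives described above. Regulation of cell growth was attached to 7 genes other than Igfbpl1, 6 of them lower (58.1% over all genes). These 6 include Nov, Igfbp2, Wisp1 and Htra3, already counted under IGF binding, so the 2 terms are not separate groups of genes. Lmx1a, a LIM homeobox gene with 4861 reads in control and 7318 in hypomorphic hearts, was the 1 higher (log2 difference 1.20). Nerve growth factor binding, a term of Pcsk6, was shared with Ntf3 (neurotrophin 3) alone, which had 323 and 148 reads (-0.67).

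**Figure D4:**
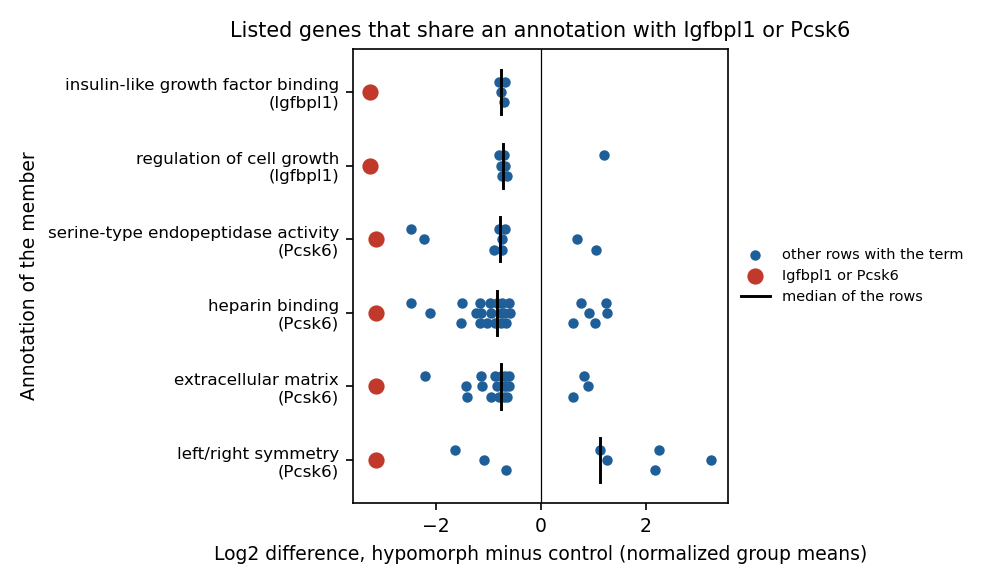
Each row is a GO term of Igfbpl1 or Pcsk6 (named in brackets), and the x axis gives the log2 difference, hypomorph minus control, of normalized group means for every listed gene with the term (blue), the member itself (red) and the median (black bar). The member, chosen for its fall, lies farthest left in each row. The medians drawn include the member, unlike those given in the text without it. Among the 6 medians only that of left/right symmetry is above 0 (1.13).

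The genes next to the members on the chromosomes were taken from the same annotation. Of 30 other protein-coding genes with a start within 1 Mb of that of Igfbpl1, 4 were listed. The nearest 2 were lower, in a table where 58.1% of genes were lower. Aldh1b1, a mitochondrial aldehyde dehydrogenase gene whose start is 27.9 kb away, had 12752 reads in control and 5876 in hypomorphic hearts (log2 difference -0.63). E230008N13Rik, whose start is 63.4 kb away on the other side, had 22.4 and 6.33 reads (-1.63). Farther away, Frmpd1 (0.68) and Hemgn (1.84), a gene of erythroid cells, were higher. Near Pcsk6, 1 of 16 such genes was listed, Fam189a1 at 706 kb, with 338 and 115 reads (-1.07).

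Marker lists give the setting of these values. Nppa (178388 and 80838 reads), the gene of atrial natriuretic peptide, Myl7 (176094 and 199161 reads), atrial myosin light chain, and Pln (58680 and 22582 reads), phospholamban, were the 3 of 19 cardiomyocyte markers listed, at -0.66, 0.63 and -0.90 on the log2 scale. No endothelial (of 9) or epicardial (of 7) marker was listed. Of 12 neural and neural crest markers, Elavl3 was lower (-0.81) and Sox10 (0.62) and Dcx (0.86) higher, and of 12 foregut, lung and liver bud markers Apoa1 was lower (-0.80). All 7 listed second heart field and pharyngeal markers, of 11, were higher, with log2 differences from 0.60 to 3.23, in a table where 41.9% of genes were higher. Without scaling, their log2 ratios of raw means ran from 0.16 (Six2) to 2.57 (Fgf8), and only Fgf8 and Fgf10 passed 1.5-fold. The part of these marker genes in the falls of Igfbpl1 and Pcsk6 was not tested. Nkx2-5 itself is not analysed here, so the reduced gene gave no check of the labels. Xist, transcribed from the inactive X of female cells, had group means of 16340 (control) and 53613 raw reads (hypomorph), a log2 ratio of 1.71, while its normalized difference was 8.74. The labels give no sex, and its part in the values of Igfbpl1 and Pcsk6 was not tested.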

How the data were processed

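Whole-heart RNA from 3 control and 3 hypomorphic E11.5 embryos was made into libraries with a TruSeq kit and sequenced by the authors on a Genome Analyzer IIx. Per the labels, CASAVA 1.4 and TopHat were used with mm9, and Avadis NGS counted the reads over RefSeq gene models. The authors deposited, for each gene and group, the mean of the raw estimated counts. They also deposited normalized group means in log2 units, each gene centred on its own baseline; the method is not given in the sources used here. The table keeps genes that passed the AC test and changed at least 1.5-fold. Deposited columns of fold changes and directions were not used. With 1 mean per group, no test was run. The depth per heart is unknown, and so is the precision it gives.

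The log2 difference was computed as the normalized hypomorph value minus the normalized control value. Genes were named by a rule covering the members, their neighbours in rank and level, pathway lists and shared GO terms, but some genes that the rule selects are not reported here. An alias that is another gene's own symbol was not matched. The members, lists and rules were chosen with earlier results of these data known. Lengths came from GENCODE M1 (1545 of 1577 genes matched), and a promoter from RefSeq for Pcsk6. Scripts were tested on simulated data. Python 3.11.15, numpy 2.4.6, pandas 2.3.3 and matplotlib 3.10.9 were used.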

Additional observations from a re-analysis of the deposited data

How the results depend on the processing

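The falls of Igfbpl1 and Pcsk6 kept their direction and stayed past 1.5-fold under all 6 alternatives of scaling and pseudocount. Each scaling shifts every gene alike, by at most 1.09, so falls of this size could not have been turned. Nothing is read from this outcome. Ranked among the falls of the table, Igfbpl1 moved from 6 to 5 by the ratio of raw means, to 4 where the higher group mean reached 50 raw reads and to 1 where it reached 1000. Pcsk6 moved from 7 to 5 and to 2 with the same minimums. These minimums rank fewer genes, and the members pass the larger one through control reads alone. The number of lower IGF system genes fell from 7 to 1 at a fold of at least 2, leaving Igfbpl1. Of the 18 other listed genes of both pathways, Lefty1 turned to -0.05 with the table's total, and Acvrl1 came to 0.00051, or no difference, with the median ratio set to 1, a setting centred on a table of mostly lower genes that also took 8 under 1.5-fold. The scalings shifted raw log2 ratios by -0.37 (table's total), -0.01 (total without globin genes), 0.47 (median factor) and 1.09 (median ratio).

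No paired analysis was possible because values of single hearts are not in the table, and for the same reason no replicate was left out. The falls were not set against differences between hearts.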
